A study of Mus musculus with 10 samples.

Results

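The enzymes that build, sulfate and trim heparan and chondroitin sulfate, and the glypican and syndecan core proteins that carry the chains, were compared in pancreatic islets of NZO and C3H mice. Members were the genes whose symbols belong to the Ndst, Hs2st, Hs3st, Hs6st, Chst, Ext, Extl, Glce, Hpse, Sulf, Gpc and Sdc families. There were 48 of them among the 19938 genes measured, each with 1 probe set, and each matched the RefSeq gene table of GRCm38.p6. The symbols did not make every member a heparan or chondroitin sulfate enzyme. The 6 glypicans and 4 syndecans are core proteins, and 7 of the 14 Chst enzymes are known for sulfating glycans other than chondroitin and dermatan sulfate. Ndst1 was not analysed here.

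The 2 groups were NZO/Hl, an obese strain prone to diabetes, and C3H (C3HeB/FeJ), with 5 arrays each. All mice were male and 6 weeks old, had eaten a high-fat diet from weaning on, and gave islets that were cultured overnight before RNA was taken. Most sample titles carry a pair of animal numbers, NZO replicate 4 carries 1 number and NZO replicate 5 a range, and whether islets of several animals were pooled is not stated. Values are log2 expression from RMA, so a difference of 1 unit is a doubling, and p-values measure the spread between these arrays only. The islet transcripts Ins2, Gcg, Sst and Iapp lay at or above the 99.4th percentile of genes on every array.

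Heparan sulfate is a chain of alternating sugars, attached to a core protein and lengthened in the Golgi by Ext1 and Ext2. Ndst enzymes replace acetyl groups with sulfate, the epimerase Glce and the O-sulfotransferases act next, and at the cell surface the sulfatases Sulf1 and Sulf2 remove 6-O-sulfates while heparanase cuts the chain. The resulting sulfate pattern governs which growth factors, chemokines and other proteins bind, and heparan sulfate is known to be abundant inside mouse beta cells.

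Some arrays stood apart in ways that touch the results. The mean log2 value of 28 measured acinar genes (of 32 listed), called the acinar score here, stood at 7.87 to 8.67 in C3H. Its NZO values were 9.49 to 10.04 for replicates 1 to 3, then 11.34 for replicate 4 and 11.21 for replicate 5, and 25 of the 28 genes were higher in NZO. For the same arrays in that order, the mean of 17 macrophage genes, of which 7 were higher and 1 lower in NZO, was 7.39 to 7.51, 7.44 to 7.84, and 8.31 and 8.47. The mean of 16 stellate cell and fibroblast genes, of which 3 were higher, was 8.14 to 8.38, 7.99 to 8.58, and 9.06 and 9.13. The mean of 10 duct genes, of which 4 were higher, was 8.81 to 8.95, 9.12 to 9.45, and 9.97 on both. The mean of 15 beta cell genes, of which 6 were lower, ran the other way, at 11.39 to 11.46, 10.99 to 11.37, and 10.70 and 10.83. Of 5 alpha cell genes 2 were lower, with means of 10.24 to 10.27 in C3H and 9.90 to 10.09 in NZO. Of 8 delta and PP cell genes 6 were lower, with means of 10.02 to 10.29 in C3H, where replicate 4 was the lowest, and 9.48 to 9.68 in NZO. Background for a gene called lower was 4.61%. What part these cell types had in the members' differences was not tested, and in whole islets fewer cells of a type and less RNA per cell cannot be told apart. C3H replicate 4 had the narrowest spread of values over genes (SD 1.72, against 1.83 to 1.92 on the other arrays).

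Of the 48 members, 8 differed between the strains at a limma adjusted p below 0.05, or 16.7%, where 10.1% of all genes tested did. Sulf2, Sdc4, Gpc4, Hs6st1, Sdc1 and Chst8 were higher in NZO, 12.5% of members against a background of 5.47%. Ndst4 and Chst10 were lower, 4.17% of members against 4.61%. These 8 were also the members whose strains did not overlap on any array. That is 16.7% against a background of 9.14% (4.96% higher in NZO and 4.18% lower). The members were chosen with earlier results of these data known, so their shares above background are no test of the set. Without NZO replicate 2 the counts were 11 higher and 3 lower, without C3H replicate 4 they were 7 higher and 4 lower, and 1 was lower without any one of C3H replicates 1, 2, 3 and 5 and NZO replicates 4 and 5. The median difference of the members was 0.05 log2 units, and that of all genes was -0.02. By role, the calls comprised 1 of 3 N-sulfotransferases, 1 of 12 epimerase and O-sulfotransferase genes, 1 of 4 genes of extracellular editing, 2 of 14 Chst genes, 1 of 6 glypicans and 2 of 4 syndecans, and none of the 5 chain polymerases.

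**Figure D1:**
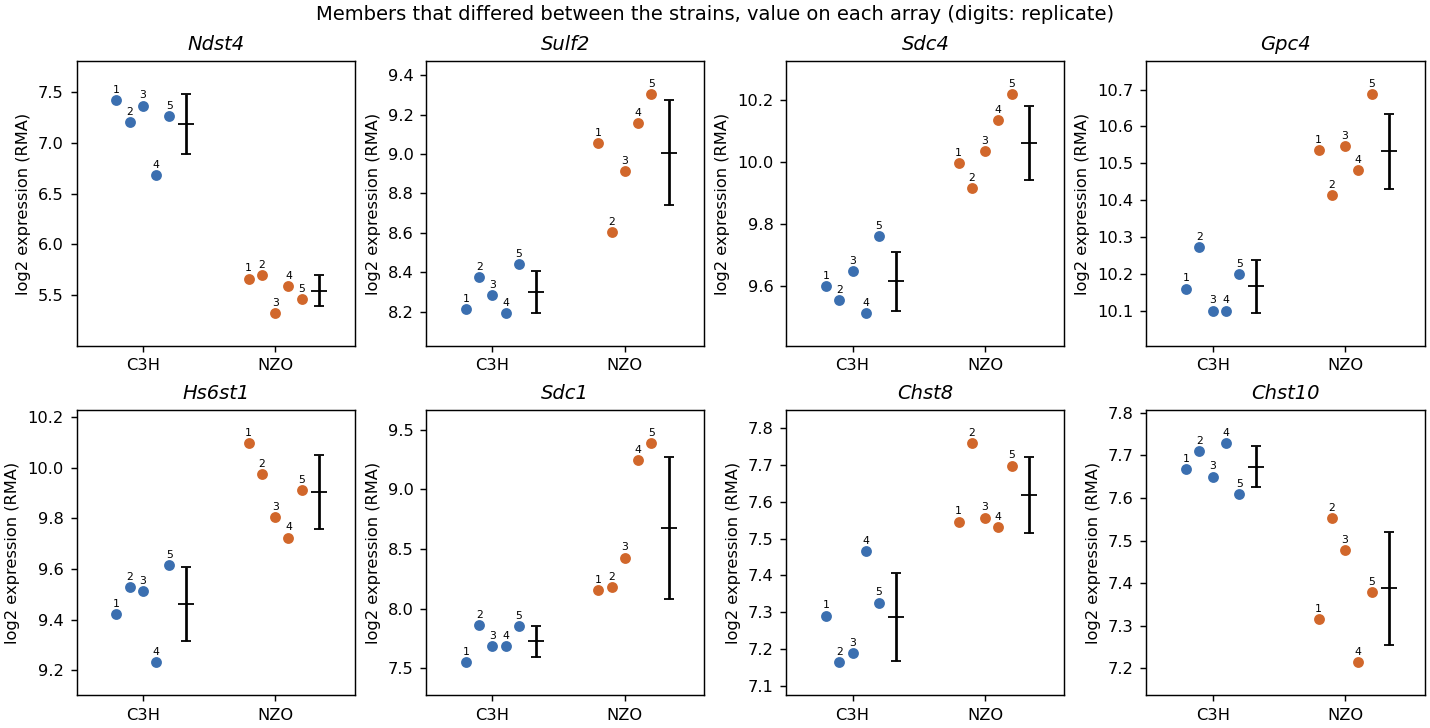
Log2 expression of the 8 members that passed the test, 1 panel per gene, with a point per array (digits are replicate numbers) and the mean ± SD of the 5 arrays of each strain in black. The strains do not overlap in any panel, Ndst4 differs most, and NZO replicates 4 and 5 lie above the other NZO arrays in Sdc1.

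The chain polymerases showed no difference that passed. Ext1, which forms the polymerase with Ext2, ranged from 9.79 to 10.09 in C3H and from 9.93 to 10.32 in NZO, so the strains overlapped. Its strain difference was 0.17 (SE 0.09, limma adjusted p = 0.300), with a 95% confidence interval of -0.02 to 0.37. Ext2 differed by -0.09, and those of Extl1, Extl2 and Extl3, related glycosyltransferases that start or regulate chains, were -0.13, -0.07 and 0.14.

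Ndst4 had the largest difference of any member and was lower in NZO. It encodes an N-deacetylase/N-sulfotransferase, the class of enzyme that makes the first modification of the growing chain, and spans positions 125404029 to 125728351 of chromosome 3 in GRCm38.p6. In C3H its values were 7.42, 7.21, 7.37, 6.68 and 7.27 on replicates 1 to 5. In NZO they were 5.66, 5.70, 5.32, 5.59 and 5.46. Every NZO array lay below every C3H array, and C3H replicate 4 lay between the other C3H arrays and NZO. The difference was -1.64 log2 units (SE 0.13, limma adjusted p = 1.59e-06). All 5 NZO values fell below the 25th percentile of genes on their own array (6.17 to 6.45 over the arrays) and all 5 C3H values above it. RMA gives no detection call, so Ndst4 was not shown to be above background in NZO and no fold is given.

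The difference of Ndst4 was -1.63 for NZO replicates 1 to 3 and -1.67 for replicates 4 and 5, each against C3H. Values this dim may not show a spread among the NZO arrays, so the likeness of these 2 differences says nothing about other cell types, and the same holds for the covariate fit. The beta, alpha, and delta and PP means were each lower on every NZO array than on every C3H array, as Ndst4 was. C3H replicate 4 was the lowest C3H array in the delta and PP mean, the duct mean and 20 of the 48 members, Ndst4 among them. What part these cell types had in the difference of Ndst4 was not tested. With acinar score as covariate, Ndst4 was at -1.64 (SE 0.27, limma adjusted p = 0.00722), the only member to pass in that fit, where 1.06% of all genes did. The other measured members of the family did not pass, and values as dim as those of Ndst3 may not show such a difference. Ndst3, whose gene lies on the same chromosome at 123526166 to 123691174, was 5.34 to 5.52 in C3H and 5.35 to 5.72 in NZO, below the 25th percentile on every array. Its difference was 0.10 (SE 0.08, limma adjusted p = 0.559, 95% interval -0.07 to 0.28). Ndst2, which acts broadly and is known for heparin synthesis in mast cells, differed by -0.01 (95% interval -0.16 to 0.15).

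**Figure D2:**
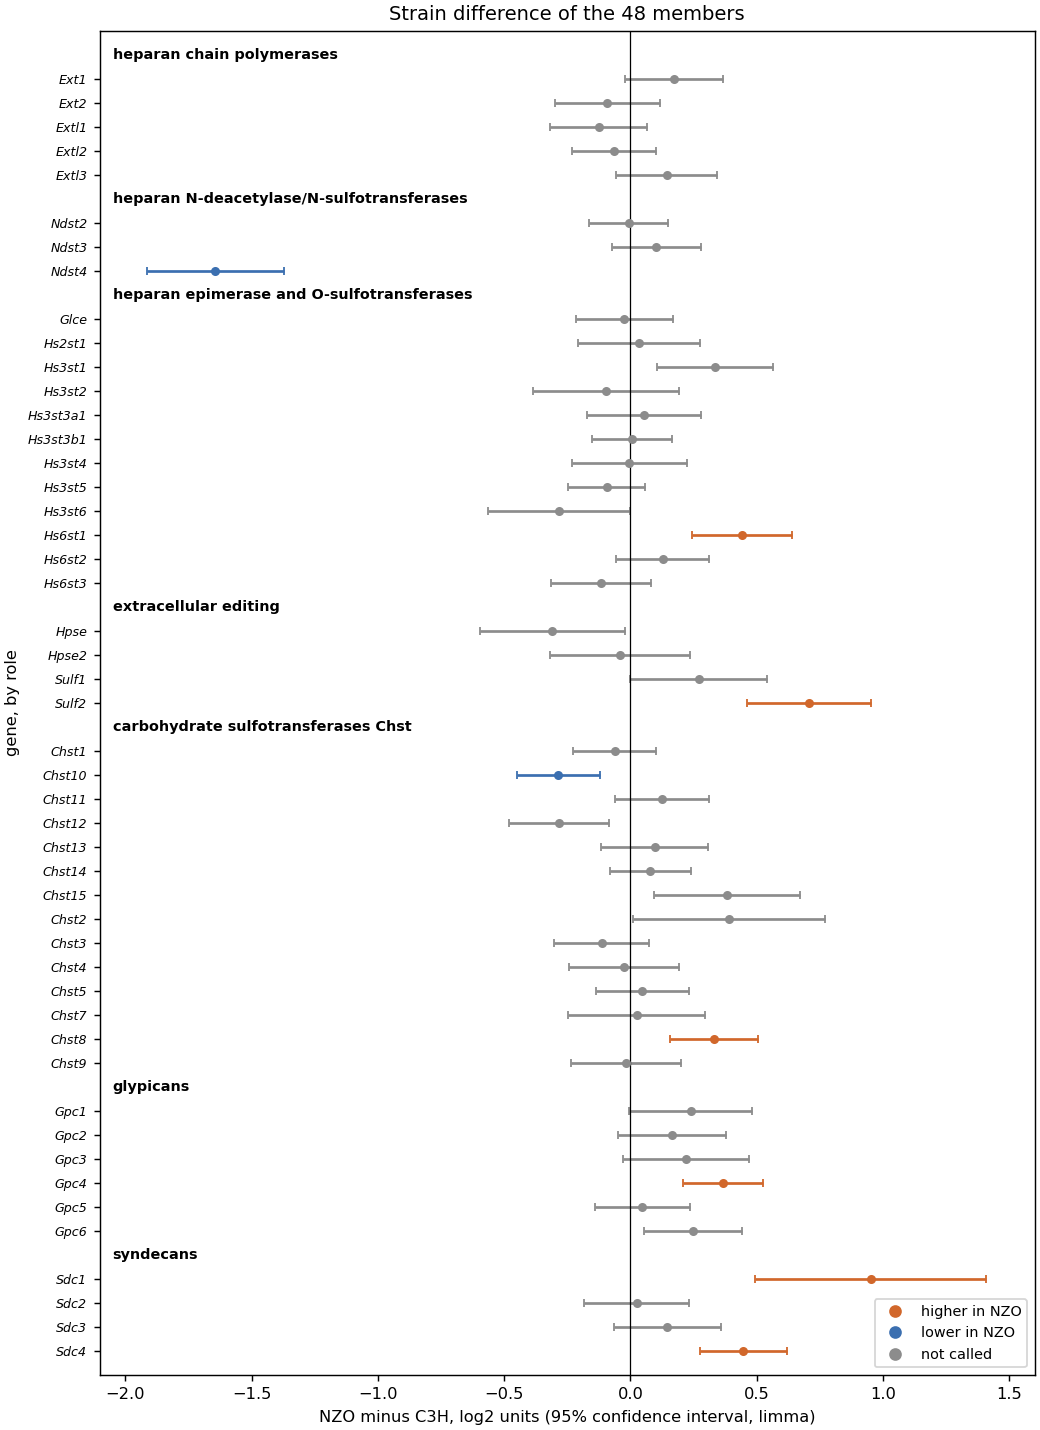
NZO minus C3H in log2 units for the 48 members, grouped by role, with 95% confidence intervals from limma; orange and blue points passed an adjusted p of 0.05 and grey points did not. Ndst4 stands at -1.64, and the others lie between -0.31 and 0.95.

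Among the enzymes that act after N-sulfation, Hs6st1 was higher in NZO. It encodes a 6-O-sulfotransferase, which adds the sulfates that the Sulf enzymes later remove. Its C3H values were 9.42, 9.53, 9.51, 9.23 and 9.61, and its NZO values were 10.10, 9.98, 9.81, 9.72 and 9.91. The strains did not overlap, although C3H replicate 5 and NZO replicate 4 came within 0.11 of each other. Hs6st1 was 1.36-fold higher in NZO (0.44, SE 0.09, limma adjusted p = 0.00642). It was the one called gene of the 6 higher in NZO whose difference was larger on NZO replicates 1 to 3 (0.50) than on replicates 4 and 5 (0.36) by more than 0.1. The family members Hs6st2 (0.13) and Hs6st3 (-0.12) did not pass. Hs2st1, the 2-O-sulfotransferase, differed by 0.03, and Glce by -0.02.

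None of the 7 Hs3st genes passed. They encode the 3-O-sulfotransferases, which add the rarest sulfate of the chain, the one that antithrombin binding needs. Hs3st1 came nearest, at 5.92 to 6.23 in C3H and 6.10 to 6.66 in NZO, which is 0.34 higher on average (SE 0.11, limma adjusted p = 0.0668, 95% interval 0.10 to 0.57). It was dim, below the 25th percentile of genes by its mean, and its values were highest on NZO replicates 4 and 5 (6.60 and 6.66). Without NZO replicate 1 (0.42, limma adjusted p = 0.016) or NZO replicate 2 (0.38, limma adjusted p = 0.0409) it passed, as it did with array weights (0.38, limma adjusted p = 0.00857). Hs3st6 differed by -0.28 and passed without NZO replicate 2 (-0.38, limma adjusted p = 0.0494) and with array weights (-0.37, limma adjusted p = 0.0401). The others, Hs3st2, Hs3st3a1, Hs3st3b1, Hs3st4 and Hs3st5, lay between -0.10 and 0.05.

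Of the genes that edit chains outside the cell, Sulf2 was higher in NZO. Sulf2 encodes an extracellular sulfatase that removes 6-O-sulfates and so changes growth factor binding. In C3H it measured 8.21, 8.37, 8.28, 8.19 and 8.44. In NZO it measured 9.06, 8.60, 8.91, 9.16 and 9.30. The lowest NZO array, replicate 2, stood 0.16 above the highest C3H array, and replicates 4 and 5 were the highest. The difference was 0.71 (1.63-fold, SE 0.11, limma adjusted p = 0.00102), 0.56 on NZO replicates 1 to 3 and 0.93 on replicates 4 and 5. Hs6st1 and Sulf2, which add and remove the same sulfate, were both higher in NZO, whereas Hs6st2, Hs6st3 and Sulf1 did not pass. The sulfation of the chains was not measured.

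Sulf1, the related sulfatase, was 6.44 to 6.60 in C3H and 6.39 to 7.18 in NZO. Its difference of 0.27 did not pass. NZO replicates 4 and 5 were the highest arrays (7.18 and 7.06), and replicates 1 to 3 differed from C3H by 0.06. Without NZO replicate 2 it passed (0.37, limma adjusted p = 0.0378). Heparanase (Hpse), which cuts heparan sulfate, was 7.73 to 8.38 in C3H and 7.49 to 8.03 in NZO. Its strain difference was -0.31 (SE 0.13, limma adjusted p = 0.188). Its lowest values were those of NZO replicates 4 and 5. Without C3H replicate 4 it passed (-0.41, limma adjusted p = 0.0373), as it did with array weights (-0.39, limma adjusted p = 0.0149). Hpse2, which encodes a relative without that cutting activity, differed by -0.04.

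The Chst family gave 1 gene higher and 1 lower, and neither is a chondroitin sulfate enzyme. Chst8 encodes a sulfotransferase that acts on N-acetylgalactosamine at the ends of N-glycans, as on pituitary hormones. Its gene lies at 34674468 to 34812711 of chromosome 7 in GRCm38.p6, which makes it the only member that starts between 30 and 46 Mb of chromosome 7, the interval the study searched for candidate genes. In C3H it measured 7.29, 7.16, 7.19, 7.47 and 7.33, and in NZO 7.55, 7.76, 7.56, 7.53 and 7.70. The highest C3H array, replicate 4, lay 0.07 below the lowest NZO array. Chst8 was 1.26-fold higher in NZO (0.33, SE 0.08, limma adjusted p = 0.017), and 12.5% of the 256 genes tested that start in the interval passed. The difference was 0.33 on NZO replicates 1 to 3 and 0.33 on replicates 4 and 5. Its call ended without C3H replicate 2 (0.30, limma adjusted p = 0.0515), C3H replicate 3 (0.31, 0.0525) or NZO replicate 5 (0.31, 0.0504), and without NZO replicates 4 and 5 together (0.33, 0.077).

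The 250 bases before the start of Chst8 are shown because the study's interval holds this member. They come from RefSeq on GRCm38.p6, the C57BL/6J reference and neither of the strains studied, at chr7:34812712-34812961 on the minus strand. Capitals mark the letters GGGCGG, the GC box, or their reverse complement CCGCCC, searched on both strands.
Chst8: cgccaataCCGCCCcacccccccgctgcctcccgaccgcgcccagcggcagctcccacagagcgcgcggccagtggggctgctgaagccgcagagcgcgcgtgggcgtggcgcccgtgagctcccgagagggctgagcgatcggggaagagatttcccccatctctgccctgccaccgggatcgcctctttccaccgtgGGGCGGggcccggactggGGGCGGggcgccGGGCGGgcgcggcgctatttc
The window held 4 matches, 3 on this strand and 1 on the other, with a GC content of 75.6%. Of 32851 such windows of all genes, 32.7% held at least 1 match and 7.7% held 3 or more.

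Chst10, the other called Chst gene, encodes the sulfotransferase that completes the HNK-1 epitope of neural cell adhesion molecules. It was lower in NZO. Its values were 7.67, 7.71, 7.65, 7.73 and 7.61 in C3H and 7.32, 7.55, 7.48, 7.21 and 7.38 in NZO. The C3H arrays lay close together, all above the NZO arrays, and NZO replicate 4 was the lowest. The difference was -0.29 (SE 0.08, limma adjusted p = 0.0294), or 1.22-fold lower. Leaving out any one of C3H replicates 1, 2, 3 and 5 and NZO replicates 1, 4 and 5 ended this call (differences of -0.30 to -0.24, limma adjusted p up to 0.087) as did leaving out NZO replicates 4 and 5 together (-0.23, limma adjusted p = 0.226).

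None of the 7 Chst enzymes of chondroitin and dermatan sulfate passed, with a median difference of 0.08. Chst12, a chondroitin 4-O-sulfotransferase, had the smallest p. It was 9.13 to 9.53 in C3H and 8.93 to 9.28 in NZO, and the means differed by -0.28 (SE 0.09, limma adjusted p = 0.0726, 95% interval -0.48 to -0.08). It passed with the array medians centred (-0.31, limma adjusted p = 0.0497), without C3H replicate 4 (-0.33, limma adjusted p = 0.0207) and without NZO replicate 1 (-0.34, limma adjusted p = 0.0316). It also passed with array weights (-0.35, limma adjusted p = 0.00385) and among genes above the median brightness (-0.28, limma adjusted p = 0.0466). Chst15, which adds a further sulfate to chondroitin 4-sulfate, differed by 0.38 and passed without NZO replicate 2 (0.51, limma adjusted p = 0.00496). The differences of Chst11 (0.13), Chst13 (0.10) and Chst14 (0.08), which place 4-O-sulfates, and of Chst3 (-0.11) and Chst7 (0.03), which place 6-O-sulfates, were smaller. Chst2, which sulfates N-acetylglucosamine in other glycans, differed by 0.39, with 0.11 on NZO replicates 1 to 3 and 0.81 on replicates 4 and 5, and passed without NZO replicate 2 (0.54, limma adjusted p = 0.0252). Chst1 (-0.06), which sulfates the galactose of keratan sulfate, Chst4 (-0.03) and Chst5 (0.05), and Chst9 (-0.02), the relative of Chst8, did not pass.

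Of the glypicans, which are anchored to the outer membrane leaflet by a lipid, Gpc4 was higher in NZO. Glypican 4 carries heparan sulfate, and its shed form is known as an adipose-derived binding partner of the insulin receptor. It measured 10.16, 10.27, 10.10, 10.10 and 10.20 in C3H and 10.54, 10.41, 10.55, 10.48 and 10.69 in NZO. The strains were separated by 0.14 between C3H replicate 2 and NZO replicate 2. Gpc4 was 1.29-fold higher (0.37, SE 0.07, limma adjusted p = 0.00514), by 0.33 on NZO replicates 1 to 3 and 0.42 on replicates 4 and 5.

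The other 5 glypicans had positive differences that did not pass. Gpc6 was 7.08 to 7.24 in C3H and 7.15 to 7.57 in NZO, 0.25 higher on average (SE 0.09, limma adjusted p = 0.108), and passed without NZO replicate 2 (0.31, limma adjusted p = 0.0253). Gpc1 differed by 0.24 and passed with array weights (0.28, limma adjusted p = 0.0401). Gpc3, the neighbour of Gpc4 on the X chromosome, differed by 0.22. In both, NZO replicates 4 and 5 were above all 8 other arrays, at 8.79 and 8.80 for Gpc1 and 7.31 and 7.07 for Gpc3, whereas NZO replicates 1 to 3 differed from C3H by 0.06 and 0.05. Gpc2 differed by 0.17 and passed without C3H replicate 4 (0.25, limma adjusted p = 0.0385) and with array weights (0.23, limma adjusted p = 0.032). Gpc5 differed by 0.05 and lay below the 25th percentile on every array.

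Both syndecans that passed were higher in NZO. Syndecans are transmembrane core proteins, and Sdc1 and Sdc4 also take part in cell adhesion. Sdc4 measured 9.60, 9.55, 9.65, 9.51 and 9.76 in C3H and 10.00, 9.92, 10.04, 10.14 and 10.22 in NZO. It was 1.36-fold higher (0.45, SE 0.08, limma adjusted p = 0.00207), and the strains lay 0.16 apart at their nearest arrays. Sdc1, the syndecan of epithelia and plasma cells, measured 7.55, 7.86, 7.69, 7.69 and 7.85 in C3H. In NZO it measured 8.15, 8.18 and 8.43 on replicates 1 to 3 and 9.25 and 9.39 on replicates 4 and 5. Replicates 1 to 3 thus lay above all C3H arrays, and replicates 4 and 5 lay further above, which gave the widest NZO spread of any member (8.68 ± 0.59, SD, n = 5, against 7.73 ± 0.13 in C3H). The difference was 0.95 (1.93-fold, SE 0.21, limma adjusted p = 0.0102), 0.53 without NZO replicates 4 and 5 (SE 0.11, limma adjusted p = 0.00783) and 1.59 on those replicates alone.

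Sdc3, the syndecan of the nervous system, was 8.88 to 9.29 in C3H and 9.06 to 9.47 in NZO. It differed by 0.15 (SE 0.10, limma adjusted p = 0.468, 95% interval -0.07 to 0.36). Sdc2 differed by 0.02.

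The windows before the starts of Sdc1 and Sdc4 are shown because both syndecans were higher in NZO. They were read from RefSeq in the same way, chr12:8771146-8771395 on the plus strand for Sdc1 and chr2:164443189-164443438 on the minus strand for Sdc4, with the GC box in capitals.
Sdc1: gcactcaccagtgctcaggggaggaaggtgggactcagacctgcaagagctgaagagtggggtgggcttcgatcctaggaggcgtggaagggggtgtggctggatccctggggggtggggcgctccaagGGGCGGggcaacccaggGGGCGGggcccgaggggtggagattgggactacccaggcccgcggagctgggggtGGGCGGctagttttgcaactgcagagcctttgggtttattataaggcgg
Sdc4: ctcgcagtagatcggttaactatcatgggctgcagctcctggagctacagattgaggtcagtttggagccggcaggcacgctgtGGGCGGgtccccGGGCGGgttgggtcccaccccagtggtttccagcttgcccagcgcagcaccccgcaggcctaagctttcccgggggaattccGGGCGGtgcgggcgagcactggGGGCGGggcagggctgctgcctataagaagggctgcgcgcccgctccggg
Sdc1 held 3 matches and Sdc4 held 4, all on this strand, with GC contents of 66.0% and 68.0%, where the median of all windows was 52.4%. Of the 39 members with such windows, 30 held a match in any of them, as did 6 of the 7 called members with windows. These are counts of genes, so the 32.7% of single windows given above is no background for them. A match was thus common among the members and not particular to the called ones. It describes the letters and shows no binding.

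NZO replicates 4 and 5 stood apart in many members. In 11 members, Sulf2, Sdc4, Sdc1, Hs3st1, Chst15, Gpc6, Chst2, Sulf1, Gpc1, Ext1 and Gpc3, both of these arrays lay above the 8 others, and in Chst12 and Hpse both lay below them. How many of all genes showed either pattern was not counted, so it cannot set the members apart. Of the 13 members, 3 passed on all arrays, where 16.7% of the members and 10.1% of all genes did. The acinar, macrophage, stellate and duct marker means of these arrays were also the highest, and the part of those cell types was not tested. Without these arrays 6 members passed, Ndst4, Sulf2, Sdc4, Gpc4, Hs6st1 and Sdc1, 5 of them higher in NZO, where 5.54% of all genes did.

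**Figure D3:**
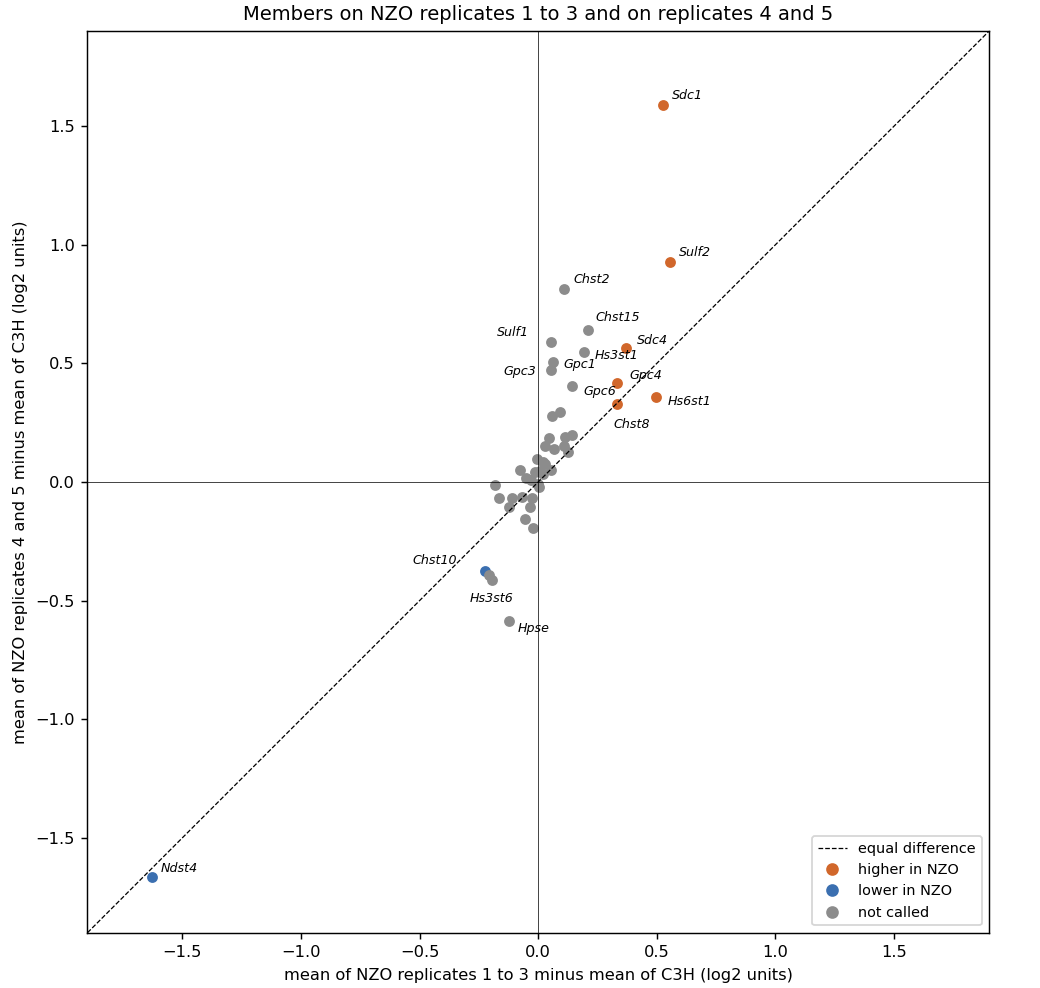
Each point is 1 of the 48 members, with its mean on NZO replicates 1 to 3 minus the C3H mean on the x axis and its mean on NZO replicates 4 and 5 minus the C3H mean on the y axis, both in log2 units; the dashed line marks equal differences. Ndst4, Chst8 and Gpc4 lie near the line, while Sdc1, Chst2 and Sulf1 lie far above it.

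Once the acinar score entered as a covariate, none of the 6 members higher in NZO passed, where 1.06% of all genes did. The score differs between the strains, so adding it made every SE 2.10 times its size for the same residual spread. Hs6st1 (0.68, SE 0.19) and Chst8 (0.38, SE 0.18) had larger differences in that fit than without the score. Those of Gpc4 (0.28, SE 0.16), Sulf2 (0.30, SE 0.21) and Sdc4 (0.21, SE 0.16) were smaller but positive, and that of Sdc1 turned to -0.22 (SE 0.28). Chst10 was -0.09 (SE 0.16).

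**Figure D4:**
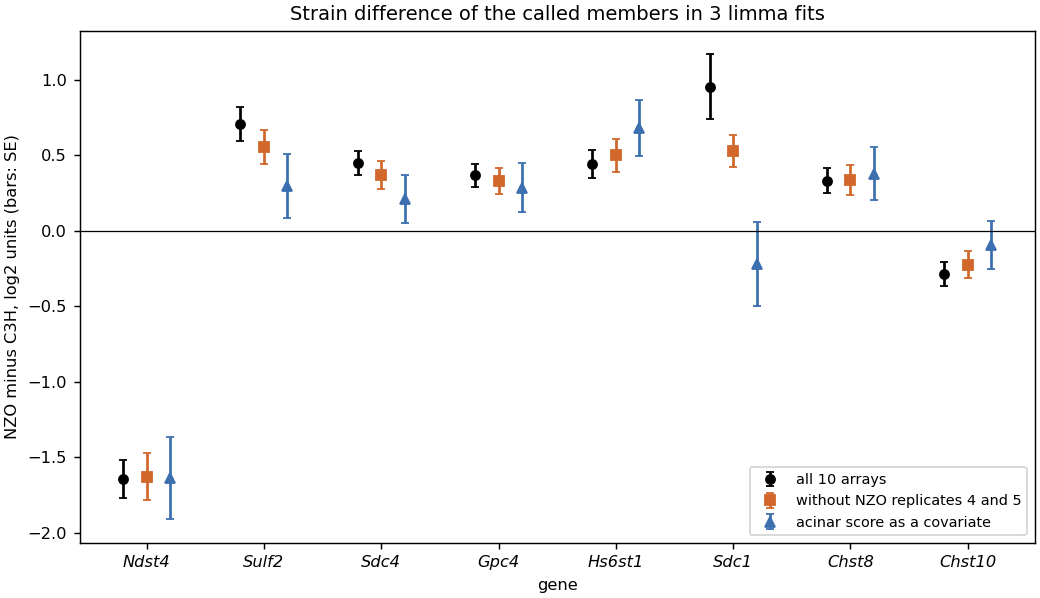
Strain difference of the 8 called members in log2 units with its SE, from limma on all 10 arrays (black), without NZO replicates 4 and 5 (orange) and with the acinar score as a covariate (blue). Ndst4 is near -1.6 in each fit, and Sdc1 goes from 0.95 to 0.53 and -0.22.

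The 40 members that did not pass had differences from -0.31 to 0.39, 23 positive and 17 negative. Their 95% confidence intervals lay within 0.5 log2 units of 0 in 34 and within 0.35 in 26, so larger strain differences in those are outside the interval, while the widest reached 0.77 (Chst2) and -0.60 (Hpse). Of the 48 members, 10 had a mean below the 25th percentile of genes and none of these was called. Ndst4 is not among them only because of its C3H arrays, since its NZO arrays were all below that percentile. Differences of such dim probe sets are compressed by RMA. The 8 members below the 25th percentile on every array all had intervals within 0.35, which may therefore not bound their strain differences.

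Other genes of the pathway changed in both directions. Of 61 measured genes in 7 lists (of 65 listed), 7 were higher and 7 lower in NZO, with a median difference of 0.03. That is 23.0% in all against the background of 10.1%, but the lists were chosen with earlier results of these data known. Without NZO replicate 2, 12 were higher. Under the acinar covariate 4 of the 61 passed, where 1.06% of all genes did. They were Ust, Pxylp1 and Spock3 of the 14 called genes, and Bpnt1, which was not called without the covariate. Genes of chondroitin chain synthesis and modification included 2 higher and none lower of 9. Ust, a 2-O-sulfotransferase of chondroitin and dermatan sulfate, was 6.76 to 7.27 in C3H and 7.83 to 8.11 in NZO, 0.89 higher on average (SE 0.10, limma adjusted p = 4.92e-05). Its difference under the acinar covariate was 1.18 (SE 0.20, limma adjusted p = 0.00766). Chsy3, a chondroitin synthase, was 6.76 to 7.06 and 7.12 to 7.97 and differed by 0.76 (SE 0.13, limma adjusted p = 0.00155). Pxylp1, the phosphatase that acts on the xylose of the linker, was the 1 called gene of 7 for the linker and was 0.67 higher (SE 0.15, limma adjusted p = 0.00913), 0.88 without NZO replicates 4 and 5 and 1.25 with the acinar covariate.

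The lists of precursor supply are too short for their counts to be told from the 10.1% of all genes that passed. None of the 6 genes of sulfate donor supply passed. Bpnt1 of that list, named after its values were seen, differed by 0.34 (limma adjusted p = 0.0593), and passed without NZO replicates 4 and 5 (0.50, limma adjusted p = 0.00468) and under the acinar covariate (0.83, limma adjusted p = 0.0364). Of the 6 genes of sugar nucleotide supply Ugdh was lower. Ugdh makes UDP-glucuronic acid, a building block of both chains, and was 10.43 to 10.76 in C3H and 9.93 to 10.32 in NZO. It differed by -0.48 (SE 0.09, limma adjusted p = 0.00327). Of 14 lysosomal genes of chain breakdown, Naglu was higher (0.41, SE 0.09) and the galactosidase Glb1 (-0.51, SE 0.10) and the sulfatase Arsg (-0.34, SE 0.07) were lower. Naglu lost its call without NZO replicates 4 and 5 (0.38, limma adjusted p = 0.0717).

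Core proteins outside the glypicans and syndecans also split. Of 7 other heparan sulfate core proteins, the testicans Spock3 (-0.59, SE 0.10) and Spock2 (-0.46, SE 0.11) and the betaglycan gene Tgfbr3 (-0.31, SE 0.08) were lower in NZO. Spock3 is also on the list of delta and PP cell markers, as is Ptprz1. Of the 6 markers on that list other than these, 4 were lower, against a background of 4.61%, and their part was not tested. Without NZO replicates 4 and 5 the calls of Spock2 (-0.40, limma adjusted p = 0.0544) and Tgfbr3 (-0.30, limma adjusted p = 0.113) ended, and that of Tgfbr3 also ended without C3H replicate 1 (-0.29, limma adjusted p = 0.0591), C3H replicate 3 (-0.28, 0.0609) or C3H replicate 5 (-0.28, 0.0639). Of 12 chondroitin and dermatan sulfate core proteins, Cd44 (1.24, SE 0.14), the granule proteoglycan gene Srgn (0.80, SE 0.16) and Cd74 (0.84, SE 0.23) were higher, and Ptprz1 (-1.03, SE 0.21), also a delta and PP marker here, was lower. Cd44 lay at 9.31 to 9.63 in C3H and 10.34 to 11.16 in NZO, whereas the strains overlapped in Srgn, Cd74 and Ptprz1. Cd74, chosen for naming after its values were seen, lost its call without C3H replicate 1 (0.79, limma adjusted p = 0.0795), C3H replicate 3 (0.77, 0.0841), NZO replicate 4 (0.73, 0.0803) or NZO replicate 5 (0.66, 0.0709), and was 0.44 without both of the last (0.181).

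**Figure D5:**
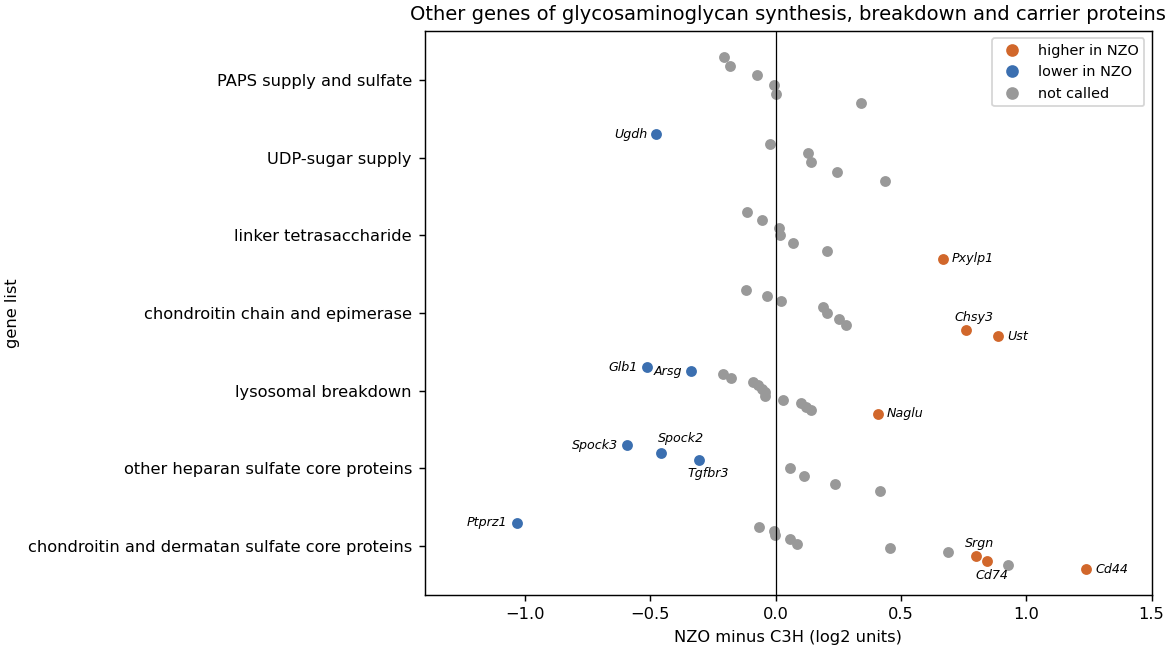
NZO minus C3H in log2 units for the 61 other genes of glycosaminoglycan synthesis, breakdown and core proteins, by list; named orange and blue points passed an adjusted p of 0.05 in limma. Called genes lie on both sides of 0, from Ptprz1 at -1.03 to Cd44 at 1.24.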

How the data were processed

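RNA of 10 islet samples was hybridised to Affymetrix mouse arrays that probe whole transcripts. Per the submitters' processing notes, the authors ran RMA in Expression Console, and the deposited values are log2 expression. RMA normalizes the arrays together by quantiles, gives no detection call, and compresses differences between dim probe sets. No source used here gives the software version or the probe set library. The number of arrays limits the precision.

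Of 35556 probe sets, a probe annotation gave 21789 exactly 1 symbol, 1621 several, and 12146 are not named here. The brightest probe set by mean over the 10 arrays was kept for each of 19938 genes. The strains were compared by limma (version 3.58.1, under R 4.3.3) with lmFit and eBayes. Its two-sided p-values were adjusted by Benjamini-Hochberg across every gene, and 0.05 was the threshold. SE and intervals are from that fit. The fit was tested on simulated data. Replicate numbers follow the order of deposition.

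The members and gene lists were chosen with earlier results of these data known. Each called member is given in full, members that did not pass by their difference and in full for the smallest p of a role, and called genes of the other lists by their smallest p. Alternatives were brightness filters, array centring, a trended robust fit, array weights, averaged probe sets, arrays left out and the acinar score as a covariate.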

Additional observations from a re-analysis of the deposited data

Results flagged for a closer look

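In 4 of the 96 groups of 5 arrays formed by the 48 members and 2 strains, 1 array lay far from the others, judged by its gap to the nearest array as a share of the group's range (above Dixon's 95% limit). Chance alone flags about 1 in 20 groups. The array was C3H replicate 4 each time. Hs3st2 was 7.50 on it against 6.65 to 6.81 on the other C3H arrays, and Hpse2 was 6.76 against 6.04 to 6.22. Extl2 was 9.04 against 9.28 to 9.35, and Ndst4 was 6.68 against 7.21 to 7.42. Without C3H replicate 4 the difference of Ndst4 was -1.77, against -1.64 with it.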

How the results depend on the processing

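The number of members called higher in NZO, 6, was 9 with array weights, 0 under the acinar covariate and 5 to 11 when 1 array was left out, with 11 without NZO replicate 2. The number called lower, 2, was 5 with array weights, 1 with the acinar covariate and 1 without NZO replicates 4 and 5, and 1 to 4 when 1 array was left out. Of the other pathway genes, 7 were called higher, against 11 with array weights, 3 with the acinar covariate and 6 to 12 when 1 array was left out. The number called lower, 7, was 4 above the median brightness, 1 with the acinar covariate and 6 to 7 when 1 array was left out. Of the 8 called members, 7 kept their sign in every one of the 18 alternatives that tested them. The exception was Sdc1, at -0.22 with the acinar covariate, where Cd74 also turned, to -0.23. Ndst4 ranged from -1.80 to -1.59 and passed in each alternative that tested it; the filter at median brightness dropped it, and Chst8 too. Its NZO values are too dim for this range to speak of stability. No paired analysis was possible because the labels give no replicate numbers that the strains share. Signal over background cannot be judged from RMA values, which limits what the dimmest members show.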

Other observations

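C3H replicate 4 was the highest C3H array in 13 of the 22 members below the median brightness of all genes and the lowest in 19 of the 26 members above it. Among the members that did not pass, NZO replicate 2 was the lowest NZO array in 12 of 40. The same counts over all genes were not made, so neither pattern can be called particular to the members.

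The 6 nearest measured genes around each called member, 3 on either side by start, were read from the same fit. Of these 48 flanking genes, 5 passed, or 10.4%, against the background of 10.1%. Beside Ndst4, Ugt8a, which makes galactosylceramide, was lower in NZO (-0.70, SE 0.15, limma adjusted p = 0.00766), and Camk2d, a calcium-dependent kinase gene, was higher (0.37, SE 0.08, limma adjusted p = 0.00841). Lonrf2 beside Chst10 was lower (-1.21, SE 0.10, limma adjusted p = 2.91e-06). Prex1 beside Sulf2 (0.80, SE 0.08) and the peptidase gene Pepd beside Chst8 (0.50, SE 0.07) were higher. None of the flanking genes of Sdc4, Gpc4, Hs6st1 or Sdc1 passed in limma. These genes were picked by position after the members' calls were seen.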
